A study of Mus musculus with 57 samples.

Results

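Messenger RNA of 8 CXC chemokine genes (Cxcl1, Cxcl2, Cxcl3, Cxcl9, Cxcl10, Cxcl13, Cxcl14 and Cxcl16) and of the chemokine receptor gene Cxcr4 was followed in CD11b-positive mouse brain cells, which the labels call microglia. The 9 genes were chosen by name and found by their symbols, 9 of the 50565 genes in the count table of one experiment and 9 of the 53278 in that of the other. In the sex experiment, of adults whose samples carry no treatment label, there were 4 male and 4 female wild-type animals (MWT, FWT) and 5 male and 5 female P2RY12 knockout animals (MKO, FKO). In the LPS experiment, wild-type and P2RY12-deficient littermates carried either the treatment label LPS, an intraperitoneal injection of lipopolysaccharide at 1 mg/kg, or the label ns, which the labels do not define. Its groups held 8 WT ns, 8 WT LPS, 8 KO ns and 8 KO LPS samples, and no sex is given for them. The KO carries a loss of P2RY12, an ADP receptor abundant on resting microglia; how the allele was made, the strain, the age in the LPS experiment and the time between injection and collection are not given in the labels. All 9 genes passed the filter on low counts in the sex experiment, where 31709 genes were tested. In the LPS experiment 7 of the 9 passed among 15857 tested, and Cxcl1 and Cxcl3 did not.

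CXC chemokines are small secreted proteins that guide leukocytes through G-protein-coupled receptors. Cxcl1, Cxcl2 and Cxcl3 carry the ELR motif and draw neutrophils through Cxcr2, Cxcl9 and Cxcl10 are interferon-inducible and draw T and NK cells through Cxcr3, and Cxcl13 draws B cells through Cxcr5. Cxcl16 is made as a membrane-bound ligand of Cxcr6 that metalloproteases can release, Cxcl14 is expressed constitutively in many epithelia, and Cxcr4 is the receptor for Cxcl12 that holds neutrophils and progenitors in bone marrow. In microglia, bacterial endotoxin is known to switch on several of the ligand genes through NF-kappaB and interferon signalling.

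Of the 8 ligand genes, 6 lie on chromosome 5 of GRCm39. Cxcl3 spans 90933960 to 90935952, Cxcl1 91039104 to 91040980 and Cxcl2 91051758 to 91053797, all on the plus strand, and their products are close relatives; how reads that match more than one of them were counted is not given in the sources used here. Cxcl9 spans 92469190 to 92475938 and Cxcl10 92494497 to 92496748 on the minus strand, and Cxcl13 spans 96104785 to 96108927 on the plus strand. Cxcl14 lies on chromosome 13 at 56436456 to 56444624, Cxcl16 on chromosome 11 at 70345215 to 70350810, and Cxcr4 on chromosome 1 at 128515936 to 128520036, all on the minus strand. Promoter sequence was present in the RefSeq table (build GRCm38.p6) for 8 of the 9 genes. The 250 bases before the start of the 4 genes whose windows matched the NF-kappaB consensus are shown because these include the chemokines with the lowest counts at ns and 2 of those that changed most with LPS. They are Cxcl1 at chr5:90890995-90891244, Cxcl2 at chr5:90903649-90903898 and Cxcl3 at chr5:90785851-90786100, all on the plus strand, and Cxcl10 at chr5:92348890-92349139 on the minus strand. Capitals mark letters that match the NF-kappaB consensus on either strand or, in Cxcl10, the interferon-stimulated response element (ISRE, searched as GAAANNGAAA on both strands).
Cxcl1: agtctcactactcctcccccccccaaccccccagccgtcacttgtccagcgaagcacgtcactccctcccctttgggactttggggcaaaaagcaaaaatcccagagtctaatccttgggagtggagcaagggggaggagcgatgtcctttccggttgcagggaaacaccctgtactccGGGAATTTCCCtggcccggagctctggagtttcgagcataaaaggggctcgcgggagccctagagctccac
Cxcl2: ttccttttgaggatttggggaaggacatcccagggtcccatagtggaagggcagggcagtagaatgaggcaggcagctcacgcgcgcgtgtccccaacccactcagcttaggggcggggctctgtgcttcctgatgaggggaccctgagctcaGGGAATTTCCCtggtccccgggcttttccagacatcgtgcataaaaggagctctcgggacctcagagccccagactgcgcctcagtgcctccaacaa
Cxcl3: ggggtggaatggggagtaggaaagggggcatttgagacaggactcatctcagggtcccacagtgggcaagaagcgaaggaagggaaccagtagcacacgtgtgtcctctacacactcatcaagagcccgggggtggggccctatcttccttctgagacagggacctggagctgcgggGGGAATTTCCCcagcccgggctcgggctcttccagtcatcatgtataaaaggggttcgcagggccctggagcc
Cxcl10: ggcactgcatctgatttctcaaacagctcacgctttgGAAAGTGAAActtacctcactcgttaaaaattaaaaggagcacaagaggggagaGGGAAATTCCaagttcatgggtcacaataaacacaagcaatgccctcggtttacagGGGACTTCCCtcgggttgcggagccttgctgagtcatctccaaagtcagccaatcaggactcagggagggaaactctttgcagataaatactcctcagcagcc

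The Cxcl1, Cxcl2 and Cxcl3 windows hold the same run, GGGAATTTCCC, which matches on both strands, 71 to 61, 97 to 87 and 73 to 63 bases before the start. The Cxcl10 window holds an ISRE match, GAAAGTGAAA, 213 to 204 bases before the start, and NF-kappaB matches at 159 to 150 and at 103 to 94. Of 32851 promoter windows of the same length, 3.9% held an NF-kappaB match and 2.98% an ISRE match. Neither was found in the windows of Cxcl9, Cxcl13 and Cxcr4, and that of Cxcl14 held 1 ISRE match. These are matches of letters, and no binding was measured.

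P2ry12 itself, the targeted gene, stood at medians of 5230 CPM in MWT, 489 in MKO, 4590 in FWT and 362 in FKO animals of the sex experiment, with every WT animal above every KO animal (CPM, the count of a gene scaled to its library's total). In the LPS experiment it stood at 3520 to 5410 CPM in 6 WT ns, 585 to 1240 in KO ns, 400 to 1060 in 6 WT LPS and 84.2 to 154 in KO LPS samples. Library names there go through the 4 groups in turn and then through them again, which gives 2 library sets, and each name ends in a library number. The 4 WT libraries of number 2 went against their labels: WT ns 1 and WT ns 5, as labelled, had P2ry12 at 481 and 927 CPM and Saa3, an acute-phase gene, at 1780 and 2490 CPM, and WT LPS 1 and WT LPS 6, as labelled, had P2ry12 at 4460 and 12200 and Saa3 at 1.59 and 3.21 CPM. They are shown apart below, and their labels were not changed. By another measure, the correlation with the median expression profile, 6 libraries stood apart with r of 0.695 to 0.849 against 0.94 to 0.974 for the others: WT ns 5, WT LPS 6, WT LPS 7, KO ns 5, KO ns 6 and KO LPS 5. Mitochondrial genes took 2.69 to 8.55% of counts in these 6 and 0.787 to 1.81% in the others. Results of the LPS experiment are therefore given for all 32 samples and, where stated, for the 24 without library number 2 in any group or for the 22 that also leave out WT LPS 7 and KO ns 6. Totals were 58.5 to 319 M counts in the sex experiment and 15.9 to 168 M in the LPS experiment, M standing for mega. The labels do not say that libraries of the LPS experiment came from separate animals, so its p-values measure the spread between these samples, which may be technical. All 10 microglial markers had counts in every group of the LPS experiment, with sums of 16800 to 52100 CPM per sample. All 11 neutrophil and 7 monocyte markers did as well, the neutrophil sums being 299 to 18300 CPM. These sums moved with LPS. From KO ns to KO LPS the median sum went from 36400 to 23700 CPM for microglial markers, which include P2ry12, from 930 to 2170 for neutrophil markers and from 286 to 641 for monocyte markers. In WT outside number 2 it went from 36200 to 21000, from 2620 to 2580 and from 582 to 782 in the same order. The part of these shifts in the changes of the 9 genes was not tested, and fewer cells of a type cannot be told apart from less RNA per cell.

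LPS was compared with ns within each genotype to ask which of these genes respond to endotoxin. Cxcl2, Cxcl9, Cxcl10, Cxcl13, Cxcl14 and Cxcl16 rose in KO samples. Without library number 2, Cxcl2, Cxcl9, Cxcl10, Cxcl13 and Cxcl16 rose in WT samples too, and Cxcr4 fell. Median levels in KO LPS were 56.7 times those of KO ns for Cxcl13, 17.2 times for Cxcl2, 8.67 times for Cxcl10 and 4.88 times for Cxcl16. For these 4 genes the 8 KO LPS samples lay above all 8 KO ns samples. In this comparison the groups did not overlap, in either direction, for 7.71% of all genes tested, and 22.3% were called. In bulk RNA, more cells that express a gene and more RNA per cell cannot be told apart, and this holds for every value here.

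**Figure D1:**
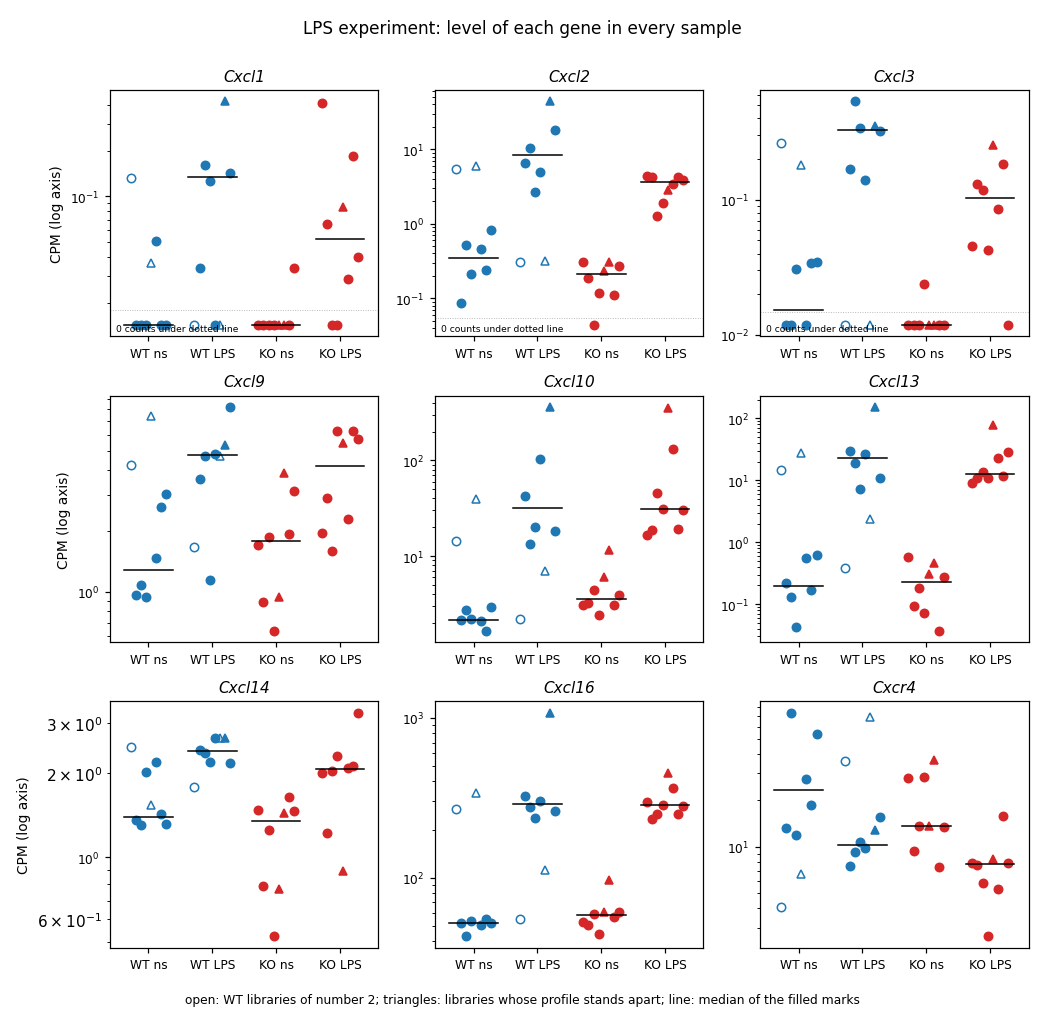
Level of each of the 9 genes in CPM (log axis, one panel per gene) in every sample of the 4 groups of the LPS experiment. Open symbols are WT libraries of number 2, triangles are libraries whose profile stood apart, lines are medians of the filled symbols and samples at 0 counts are drawn under a dotted line; Cxcl16 lay at 44.7 to 96.5 CPM in KO ns and 233 to 453 CPM in KO LPS.

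Of the neutrophil-attracting ligands, Cxcl2 had the highest level per kb of exon. Cxcl2 in KO ns samples ranged from 0 to 0.309 CPM with a median of 0.21, and in KO LPS samples from 1.27 to 4.36 with a median of 3.62. In the 6 WT ns samples outside number 2 it ranged from 0.0878 to 0.826 CPM with a median of 0.347, and in the 6 WT LPS samples from 2.7 to 44.2 with a median of 8.4. Neither pair of groups overlapped, which held for 7.71% of all genes tested in KO and for 25.1% in WT outside number 2. As labelled, the libraries WT ns 1 and WT ns 5 had 5.43 and 6.01 CPM of Cxcl2, inside the range of WT LPS, and WT LPS 1 and WT LPS 6, as labelled, had 0.303 and 0.313 CPM, inside that of WT ns. In KO the log2 fold change of Cxcl2 was 4.14 ± 0.90 (SE, all 32 samples, adjusted p = 0.00176, edgeR) and 4.5 ± 0.58 over the 22 samples. In WT it was 2.5 ± 0.80 over all samples (adjusted p = 0.119, edgeR) and 4.58 ± 0.49 over the 22 (adjusted p = 1.63e-07, edgeR).

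Cxcl1 and Cxcl3 were close to absent without LPS. Cxcl1 had 1 count in all 8 KO ns samples together and 20 counts in the 8 KO LPS samples, with 2 of the 8 at 0. Cxcl3 had 1 count in KO ns and 24 in KO LPS, with 1 of the 8 at 0. In WT outside number 2, Cxcl1 had 1 count over 6 WT ns and 21 over 6 WT LPS samples, and Cxcl3 had 7 and 49. Every one of the 6 WT LPS samples had at least 3 counts of Cxcl3, and in CPM they lay above all 6 WT ns samples. These groups did not overlap, in either direction, for 25.1% of all genes tested. With no filter on low counts, both genes passed the test in KO, with adjusted p = 0.0388 for Cxcl1 and 0.0145 for Cxcl3 (edgeR), and neither did in WT over all samples, where the adjusted p was 0.304 and 0.244 (edgeR). No fold change is given for them, since in KO it would rest on a single count at ns.

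Of the interferon-inducible ligands, Cxcl10 was higher per kb of exon than Cxcl9 and ranged more widely under LPS. Cxcl10 ranged from 2.4 to 11.7 CPM in KO ns with a median of 3.55, and from 16.7 to 349 in KO LPS with a median of 30.8. In WT outside number 2 it ranged from 1.66 to 2.96 CPM at ns with a median of 2.17, and from 13.3 to 363 under LPS with a median of 31.5. The groups did not overlap in either genotype, as for 7.71% of all genes tested in KO and 25.1% in WT outside number 2. The highest values, 363 CPM in WT LPS 7 and 349 in KO LPS 5, were in libraries whose profile stood apart, and KO LPS 6, whose profile did not, had 133. As labelled, the libraries WT ns 1 and WT ns 5 had 14.2 and 39.2 CPM, and WT LPS 1 and WT LPS 6, as labelled, had 2.2 and 7.04. The log2 fold change of Cxcl10 was 3.74 ± 0.82 in KO over all samples (adjusted p = 0.00177, edgeR) and 3.67 ± 0.57 over the 22. In WT it was 2.7 ± 0.78 over all (adjusted p = 0.104, edgeR) and 4.08 ± 0.55 over the 22 (adjusted p = 5.63e-06, edgeR). Art3, a gene on the opposite strand whose span overlaps Cxcl10, stood at no more than 1.29 CPM in samples outside number 2 of WT and outside the libraries apart.

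Cxcl9 moved less. It ranged from 0.64 to 3.87 CPM in KO ns (median 1.78) and from 1.59 to 6.27 in KO LPS (median 4.18), and from 0.944 to 3.03 in WT ns (median 1.28) and 1.14 to 8.23 in WT LPS (median 4.76) outside number 2. The groups overlapped in both genotypes. The log2 fold change of Cxcl9 in KO was 1.17 ± 0.40 over all samples (adjusted p = 0.0338, edgeR) and 1.35 ± 0.40 over the 22. With library set and number as a block its adjusted p was 0.0543 (edgeR). WT samples had 0.65 ± 0.39 over all samples (adjusted p = 0.311, edgeR) and 1.57 ± 0.39 over the 22 (adjusted p = 0.00206, edgeR).

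Cxcl13, the B-cell attractant, had the largest fold change of the 7 genes tested, in both genotypes over the 24 and over the 22 samples. In KO ns it ranged from 0.0372 to 0.579 CPM (median 0.225), and in KO LPS from 9 to 78.2 (median 12.8). In WT outside number 2 it ranged from 0.0429 to 0.619 CPM at ns (median 0.194) and from 7.29 to 154 under LPS (median 22.8). Neither pair overlapped, as for 7.71% of all genes tested in KO and 25.1% in WT outside number 2. The lowest LPS sample was more than 10 times the highest ns sample in each genotype. As labelled, the libraries WT ns 1 and WT ns 5 had 14.7 and 27.9 CPM, and WT LPS 1 and WT LPS 6, as labelled, had 0.379 and 2.35. In KO the log2 fold change of Cxcl13 was 6.36 ± 1.24 over all samples (adjusted p = 0.000829, edgeR) and 6.9 ± 0.61 over the 22. In WT it was 2.33 ± 0.98 over all (adjusted p = 0.169, edgeR) and 6.48 ± 0.53 over the 22 (adjusted p = 7.38e-09, edgeR).

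Cxcl14 changed least among the ligands tested. It stood at 0.522 to 1.64 CPM in KO ns (median 1.35) and 0.896 to 3.28 in KO LPS (median 2.05), and at 1.3 to 2.18 in WT ns (median 1.39) and 2.17 to 2.67 in WT LPS (median 2.39) outside number 2. The groups overlapped in both genotypes, in WT by a single WT ns sample at 2.18 CPM. The log2 fold change of Cxcl14 in KO was 0.78 ± 0.24 over all samples (adjusted p = 0.0207, edgeR) and 0.96 ± 0.25 over the 22. WT samples had 0.58 ± 0.23 over the 24 samples (adjusted p = 0.0516, edgeR) and 0.61 ± 0.24 over the 22 (adjusted p = 0.0356, edgeR).

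Cxcl16, the membrane-bound ligand, had the highest median level per kb of exon of the set with and without LPS, and over the 22 samples its change had the smallest standard error. Cxcl16 ranged from 44.7 to 96.5 CPM in KO ns (median 58.3) and from 233 to 453 in KO LPS (median 284). In WT outside number 2 it ranged from 43 to 55.2 CPM at ns (median 52.2) and from 236 to 1080 under LPS (median 289). The groups did not overlap, as for 7.71% of all genes tested in KO and 25.1% in WT outside number 2. The highest sample of each of the 3 groups WT LPS, KO ns and KO LPS was a library whose profile stood apart, and the next highest values were 324, 61.4 and 363 CPM. As labelled, the libraries WT ns 1 and WT ns 5 had 269 and 339 CPM, and WT LPS 1 and WT LPS 6, as labelled, had 55.3 and 112. The log2 fold change of Cxcl16 in KO was 2.33 ± 0.46 over all samples (adjusted p = 0.000876, edgeR) and 2.36 ± 0.11 over the 22, a 5.15-fold rise. In WT it was 1.47 ± 0.45 over all (adjusted p = 0.115, edgeR) and 2.5 ± 0.11 over the 22 (adjusted p = 4.54e-13, edgeR), a 5.66-fold rise. Zmynd15 overlaps Cxcl16 on the opposite strand, and the strand setting of the counting is not given in the sources used here. Outside WT number 2 and the libraries apart, Zmynd15 stood at 20 to 24.7 CPM in WT ns, 82.1 to 117 in WT LPS, 21.7 to 27.7 in KO ns and 68.9 to 104 in KO LPS. Without strand, reads of the overlap cannot be assigned to either gene.

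Cxcr4, the only receptor among the 9, had negative fold changes in both genotypes. It ranged from 7.4 to 36.5 CPM in KO ns (median 13.6) and from 2.64 to 15.8 in KO LPS (median 7.69), and from 11.9 to 74 in WT ns (median 23.2) and 7.55 to 15.5 in WT LPS (median 10.3) outside number 2. The groups overlapped in both genotypes. As labelled, the libraries WT ns 1 and WT ns 5 had 4.11 and 6.71 CPM, and WT LPS 1 and WT LPS 6, as labelled, had 35.7 and 69. In KO the log2 fold change of Cxcr4 was -1.34 ± 0.52 over all samples, -1.33 ± 0.47 over the 24 and -0.98 ± 0.51 over the 22, with adjusted p = 0.0624, 0.0378 and 0.116 (edgeR), so that the call rests on the samples included. For WT it was -0.34 ± 0.51 over all samples (adjusted p = 0.712, edgeR), -1.65 ± 0.48 over the 24 (adjusted p = 0.00936, edgeR) and -1.6 ± 0.51 over the 22 (adjusted p = 0.0124, edgeR). Neutrophils express Cxcr4, and the neutrophil marker sum was 18300 and 16900 CPM in WT ns 3 and WT ns 8, the 2 WT ns samples with the most Cxcr4, at 74 and 54 CPM. In KO ns the samples with the highest sums, 10200, 7590 and 6540 CPM, had 36.5, 28.2 and 28.1 CPM of Cxcr4. WT LPS 7 had a sum of 13500 and 12.9 CPM of Cxcr4. Between the groups the median sum and Cxcr4 did not move the same way: in KO the sum went from 930 at ns to 2170 CPM under LPS while the median of Cxcr4 went from 13.6 to 7.69, and in WT outside number 2 the sum was 2620 and 2580 while Cxcr4 went from 23.2 to 10.3. The part of these cells in the change of Cxcr4 was not tested.

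**Figure D2:**
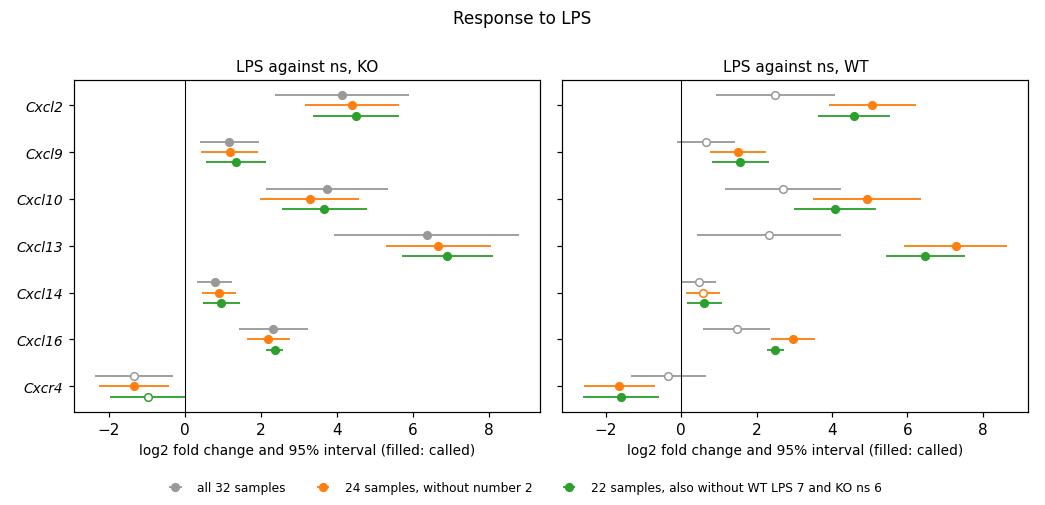
Log2 fold change of LPS against ns with 95% confidence interval for the 7 genes tested, in KO and in WT, for 3 sets of samples (all 32, the 24 without library number 2, the 22 that also leave out WT LPS 7 and KO ns 6); filled points passed the adjusted test. Without library number 2 the WT values of the 6 ligands lie above 0 and that of Cxcr4 below it; Cxcl13 goes from 2.33 to 7.28 and 6.48.

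By count, 6 of the 7 genes tested were called higher and 0 lower in KO over all samples (adjusted p under 0.05), where 22.3% of all genes were called in either direction. Over the 24 samples 6 were higher and 1 lower (29.3% of all genes called), and over the 22 samples 6 higher and 0 lower (50.8% called). The median log2 fold change of the 7 genes in KO was 2.33 against -0.021 for all genes tested. Cxcl2 and Cxcl13 had median counts of 4.5 and 5.5 in KO ns, under the filter's minimum count of 10. In KO LPS these medians were 94.5 and 422. Genes so low at ns can pass the filter through the LPS samples alone, so the counts called and the median are partly set by the filter. In WT, edgeR called 0 of the 7 over all 32 samples, where it called 0% of all genes. Of the 7, 4 had an unadjusted p under 0.05, as did 22.7% of all genes, and DESeq2 called 3 of the members and 4.01% of all genes. Over the 24 samples WT had 5 higher and 1 lower (36.3% of all genes called), and over the 22 samples 6 higher and 1 lower (53.7% called). Within library set 1 alone 5 of the 7 were called in KO, and within set 2 alone 0 were. The log2 fold changes in set 2 were 4.04 for Cxcl2, 4.57 for Cxcl10, 7.2 for Cxcl13 and 2.4 for Cxcl16. Their adjusted p was 0.178, 0.184, 0.163 and 0.179 (edgeR). Set 2 holds all 6 libraries that stood apart. The share of all genes called within each set is not given here, so these counts do not compare the members between the sets.

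Per kb of exon, which scales levels by length, the order of the levels changed with LPS. The length is the union of all annotated exons and not that of a single transcript. For Cxcl10 it equals the whole span (2252 bases), and for Cxcl3 it is 3498 against a span of 1993. The order between genes thus rests partly on these lengths. In KO ns the median was 19.3 CPM per kb for Cxcl16, 7.54 for Cxcr4 and 1.58 for Cxcl10, with Cxcl14 at 0.737, Cxcl9 at 0.59, Cxcl13 at 0.196 and Cxcl2 at 0.102. In KO LPS it was 94.1 for Cxcl16, 13.7 for Cxcl10, 11.1 for Cxcl13 and 4.25 for Cxcr4, then 1.75 for Cxcl2, 1.39 for Cxcl9 and 1.12 for Cxcl14. The median of Cxcl13 thus moved from below that of Cxcl9 to above that of Cxcr4. Ranges of neighbours in the KO ns order overlapped except between Cxcl10 and Cxcl14. The ranges of Cxcl10 (7.41 to 155) and Cxcl13 (7.82 to 68) overlapped, as did those of Cxcl2, Cxcl9 and Cxcl14, and the range of Cxcl16 (77 to 150) lay above that of every other gene of the set except Cxcl10. WT LPS samples outside number 2 had Cxcl16 first at 95.5, then Cxcl13 at 19.8, Cxcl10 at 14, Cxcr4 at 5.67 and Cxcl2 at 4.06. In CPM, not scaled by length, the medians of Cxcl10 and Cxcl13 there stood the other way round, at 31.5 and 22.8.

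Across all 32 samples, log2 levels of Cxcl16 followed those of Cxcl13 (r = 0.971), Cxcl10 (r = 0.934) and Cxcl2 (r = 0.904), as a description in which the samples share the LPS contrast. Within the 8 KO LPS samples r was 0.869 for Cxcl10 and Cxcl13, 0.885 for Cxcl10 and Cxcl16 and 0.805 for Cxcl13 and Cxcl16. Without KO LPS 5, a library whose profile stood apart, these values were 0.627, 0.7 and 0.436 over the other 7. Against Cxcl2, r was -0.274 for Cxcl10 and -0.043 for Cxcl13 with KO LPS 5, and -0.354 and 0.027 without it. KO LPS 5 and KO LPS 6 were the highest in Cxcl10 and in Cxcl16, and KO LPS 5 was the highest in Cxcl13. By Pearson r of log2 CPM over the 32 samples, among 10403 genes with a mean of at least 5 CPM, the gene most like Cxcl2 was Acod1 (0.96), followed by Clec4a1 (0.959) and Tnf (0.952). Cxcl10 was most like Ifit1 (0.98), Slamf8 and Usp18, Cxcl13 like Hcar2 (0.982), Ms4a6c and Ifi204, and Cxcl16 like Tlr2 (0.989), Cpd and Snx1. For Cxcl9 they were Gbp2 (0.828), AW112010 and Ms4a4a, for Cxcl14 Slc35e4 (0.75), Mrpl28 and Setd6, and for Cxcr4 Stap1 (0.924), Stom and Tmem71. Over the 22 samples these leading values were 0.957 for Acod1, 0.983 for Ifit1, 0.984 for Hcar2, 0.99 for Tlr2, 0.848 for Gbp2, 0.728 for Slc35e4 and 0.902 for Stap1. Of the 3 genes named for each member, the first over the 32 samples was not the highest over the 22 for Cxcl2 (Clec4a1 at 0.963), Cxcr4 (Tmem71 at 0.916) and Cxcl14 (Setd6 at 0.732).

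The other genes of the family were accounted for as a list of 16 CXC ligands, receptors and atypical receptors, chosen with earlier results of these data known. Of these, 9 passed the filter over all samples, and in KO under LPS 0 rose and 3 fell, where 22.3% of all genes were called. Over the 22 samples 8 passed the filter, and 1 rose and 3 fell in KO (50.8% of all genes called); the gene that rose was Cxcr5 (0.69 ± 0.28, adjusted p = 0.0441, edgeR), named after its value was seen. In WT 1 rose and 3 fell over the 24 samples (36.3% called), and 0 rose and 3 fell over the 22 (53.7% called). Pf4, a platelet and macrophage chemokine, fell by a log2 fold change of -2.37 ± 0.65, from 20.1 ± 14.9 to 3.58 ± 2.56 CPM (SD, n = 8, adjusted p = 0.00959, edgeR). Cxcl12, the ligand of Cxcr4, changed by -2.9 ± 0.71 from 0.901 to 0.116 CPM (adjusted p = 0.00438, edgeR), and Cxcr3, the receptor for Cxcl9 and Cxcl10, by -2.53 ± 0.54 from 2.52 to 0.433 CPM (adjusted p = 0.00153, edgeR). Cxcr2, the neutrophil receptor for Cxcl1 and Cxcl2, stood at 58.2 CPM in KO LPS and 25.6 in KO ns (adjusted p = 0.0543, edgeR), Cxcr5, the receptor for Cxcl13, at 0.974 and 0.611 (adjusted p = 0.0642, edgeR), and Cxcr6, the receptor for Cxcl16, at 0.386 and 0.593 (adjusted p = 0.745, edgeR). Cxcr1, Ackr3 and Ackr4 did not pass either, and Cxcl5, Ppbp, Cxcl11, Cxcl15, Cxcl17, Ackr1 and Ackr2 were below the filter, at no more than 0.737 CPM in any KO sample. In WT over the 22 samples Pf4, Cxcl12 and Cxcr3 fell as well, with log2 fold changes of -2.44 ± 0.32, -2.4 ± 0.52 and -2.31 ± 0.36. The median of the 9 in KO was -0.37. Marker sums of other cell types moved with these falls. From KO ns to KO LPS the median sum went from 386 to 163 CPM for 7 markers of border-associated macrophages, a list that holds Pf4, from 74.2 to 29.5 for 7 endothelial markers and from 20.5 to 6.21 for 7 T and NK cell markers. In WT outside number 2 these medians went from 416 to 135, from 53.6 to 23.1 and from 29.3 to 9.87. Their part in the falls was not tested.

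Of 14 partners of Cxcl12 and Cxcr4, all tested, 0 rose and 4 fell in KO over all samples (22.3% of all genes called): Cxcl12, Rgs2 (-1.42 ± 0.37), Rgs1 (-1.25 ± 0.36) and Dpp4 (-1.51 ± 0.54). Rgs1 and Rgs2 speed the shut-off of G proteins, and Dpp4 trims Cxcl12. Over the 22 samples 2 rose and 6 fell in each genotype, with a median of -0.31 in KO and -0.24 in WT; there 50.8% of all genes were called in KO and 53.7% in WT, so that both counts lie near the share of all genes. Rgs1 was not called over the 22 (-0.84 ± 0.42, adjusted p = 0.104, edgeR). Of 23 regulators of transcription and mRNA decay at chemokine genes, 14 rose and 1 fell in KO over all samples, with a median of 0.98. Irf7, an interferon regulatory factor, rose by 2.66 ± 0.38 and Bcl3, a nuclear partner of NF-kappaB, by 3.45 ± 0.62. Irf9 rose by 0.82 ± 0.15, and the gene that fell was Atf3 at -0.57 ± 0.20, named after its value was seen. Over the 22 samples the counts were 15 up and 2 down in KO and 15 up and 3 down in WT. Of 10 upstream cytokines 5 were tested, and in KO Tnf (4.2 ± 0.79) and Il1b (2.77 ± 0.60) rose and Il6 (-2.3 ± 0.49) and Ltb (-1.42 ± 0.42) fell. Of 3 genes for the shedding of Cxcl16, Rhbdf2, a partner of Adam17, rose in KO by 1.64 ± 0.43, and Adam10 and Adam17 had 0.52 ± 0.21 and 0.3 ± 0.19 (adjusted p = 0.0695 and 0.274, edgeR). Over the 22 samples Adam10 was called in KO (0.53 ± 0.08, adjusted p = 1.07e-05, edgeR), and Tnf, Il1b, Il6, Ltb and Rhbdf2 had 4.16, 2.78, -2.25, -1.32 and 1.48, each called.

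KO was compared with WT to ask whether loss of P2RY12 changes these genes, first without and then with LPS. None of the 7 genes tested passed the edgeR test in either comparison, over the 32, the 24 or the 22 samples. Of the 7, Cxcl2 was the gene with the largest difference under LPS over the 22 samples, lower in KO. Cxcl2 in WT LPS was 6.5, 10.3, 2.7, 4.89, 44.2 and 17.9 CPM in samples 2, 3, 4, 5, 7 and 8, and the 8 KO LPS samples lay between 1.27 and 4.36 CPM. All but WT LPS 4 lay above every KO LPS sample. The log2 difference of Cxcl2 under LPS, KO against WT, was -1.55 ± 0.77 over all samples, -1.98 ± 0.51 over the 24 and -1.47 ± 0.42 over the 22, with adjusted p = 0.686, 0.225 and 0.186 (edgeR). At ns it was -3.2 ± 0.89, -1.3 ± 0.65 and -1.38 ± 0.62 in the same order, with adjusted p = 0.171, 0.495 and 0.329 (edgeR). At ns the counts behind it were low, 39 in the 8 KO samples and 89 in the 6 WT samples outside number 2.

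**Figure D3:**
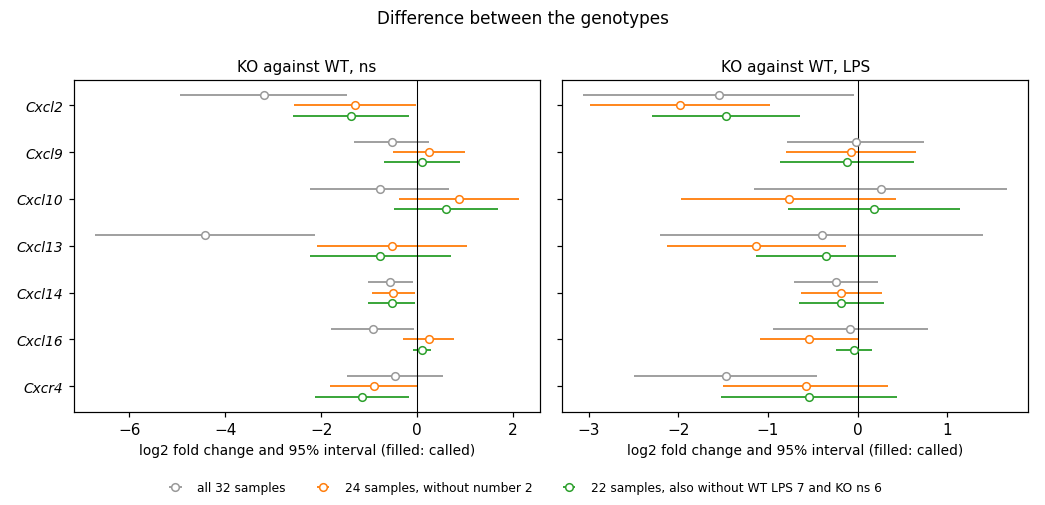
Log2 difference of KO against WT with 95% confidence interval for the 7 genes tested, at ns and under LPS, for the same 3 sets of samples; filled points would have passed the adjusted test. Intervals of Cxcl2 under LPS lie below 0 in all 3 sets, and no difference passed the adjusted test; at ns the value for Cxcl13 goes from -4.42 to -0.77.

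Counts of members called, with those of all genes beside them, were as follows. At ns, edgeR called 0 of the 7 over all samples (0.114% of all genes), 0 over the 24 (0.0822%) and 0 over the 22 (0.374%). At an unadjusted p under 0.05 there were 4, 1 and 3 of the 7, against 8.58%, 10.4% and 13.9% of all genes, and DESeq2, run on all samples, called 2 (0.859% of all genes). These were Cxcl13 (adjusted p = 0.00321, DESeq2) and Cxcl2 (adjusted p = 0.00957, DESeq2), both lower in KO. Of 1149 counts of Cxcl13 in the 8 libraries labelled WT ns, 49 were outside WT ns 1 and WT ns 5, and of 377 counts of Cxcl2, 89 were. Under LPS, edgeR called 0 of the 7 over all samples (0.126% of all genes), 0 over the 24 (0.0885%) and 0 over the 22 (0.218%), with 1, 2 and 1 at an unadjusted p under 0.05 (7.38%, 6.65% and 10.5% of all genes), and DESeq2 called 0 (0.708%). For the interaction, the difference in LPS response between the genotypes, edgeR called 0 of the 7 in each (0%, 0% and 0.00623% of all genes), with 1, 0 and 0 at an unadjusted p under 0.05 (10.7%, 9.95% and 4.49%), and DESeq2 called 0 (0.02%).

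Intervals of the genotype difference are given over the 22 samples, a set chosen after seeing the data. They describe the spread between these samples and do not bound how far the genotypes could differ. Under LPS the 95% confidence interval of the log2 difference was -0.24 to 0.17 for Cxcl16, -0.77 to 1.14 for Cxcl10, -1.13 to 0.42 for Cxcl13, -0.87 to 0.63 for Cxcl9, -0.65 to 0.29 for Cxcl14, -1.52 to 0.44 for Cxcr4 and -2.28 to -0.65 for Cxcl2. At ns it was -0.1 to 0.3 for Cxcl16 and -2.14 to -0.17 for Cxcr4. The interval of Cxcl16 was the narrowest of the 7 in both comparisons. For the interaction the interval was -0.42 to 0.15 for Cxcl16, -1.24 to 2.07 for Cxcl13 and -2.17 to 2 for Cxcl2. Over all 32 samples the interaction of Cxcl13 was 4.03 ± 1.47 (adjusted p = 0.416, edgeR), and over the 22 it was 0.41 ± 0.85.

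In the sex experiment, KO was compared with WT within and across the sexes. Cxcl16 was the gene of the 9 with the lowest unadjusted p for genotype, higher in KO by a factor of 1.27, and it did not pass the adjusted test. Cxcl16 stood at 43, 38.7, 37.6 and 25.9 CPM in MWT 1, 3, 4 and 5 and at 49.8, 49.7, 47, 40.8 and 40.6 in MKO 1 to 5. In females it stood at 39, 35.4, 44 and 37.5 in FWT 1, 2, 3 and 5 and at 45.9, 59.8, 44.6, 50.9 and 47.8 in FKO 1 to 5. The female groups did not overlap (as in 2.19% of all genes tested) and the male groups did. The log2 difference of Cxcl16 averaged over the sexes was 0.34 ± 0.09 (unadjusted p = 0.000778, adjusted p = 0.102, edgeR), with 0.33 ± 0.12 in males and 0.35 ± 0.12 in females. Zmynd15, which overlaps it on the opposite strand, stood at 8.88 to 15.4 CPM in MWT, 15.6 to 18.6 in MKO, 12.9 to 15.8 in FWT and 17 to 21.1 in FKO, and its part in the Cxcl16 counts was not tested. The table of this experiment counts whole gene spans, introns included.

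A pair of wild-type animals set the spread of Cxcl2 and Cxcr4. Cxcl2 was 7.17, 8.38, 11 and 89.7 CPM in MWT 1, 3, 4 and 5 and 6.77, 98.6, 12.6 and 7.91 in FWT 1, 2, 3 and 5. In KO it was 10.7, 10.2, 8.79, 7.66 and 5 in MKO 1 to 5 and 10.8, 10.7, 11.7, 48.4 and 35.5 in FKO 1 to 5. MWT 5 and FWT 2 were thus far above the rest, followed by FKO 4 and FKO 5. The same 4 animals were highest in Cxcr4: 207 CPM in MWT 5, 110 in FWT 2, 56.6 in FKO 4 and 49.7 in FKO 5, then 44.5 in MWT 4, with the other 13 animals at 11.4 to 28.6. The summed neutrophil markers were 49500 CPM in MWT 5 and 29100 in FWT 2 against 733 to 7770 in the other 16 animals, all 11 markers being detected in every group. The log2 difference between KO and WT averaged over the sexes was -1.1 ± 0.65 for Cxcl2 and -0.92 ± 0.52 for Cxcr4 with all animals, and 0.65 ± 0.37 and 0.39 ± 0.27 without those 2, so that the direction rests on them. Cxcl3 went from -0.19 ± 0.74 to 1.3 ± 0.78. None of these was called (adjusted p of 0.66 to 0.996 with all animals, edgeR).

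**Figure D4:**
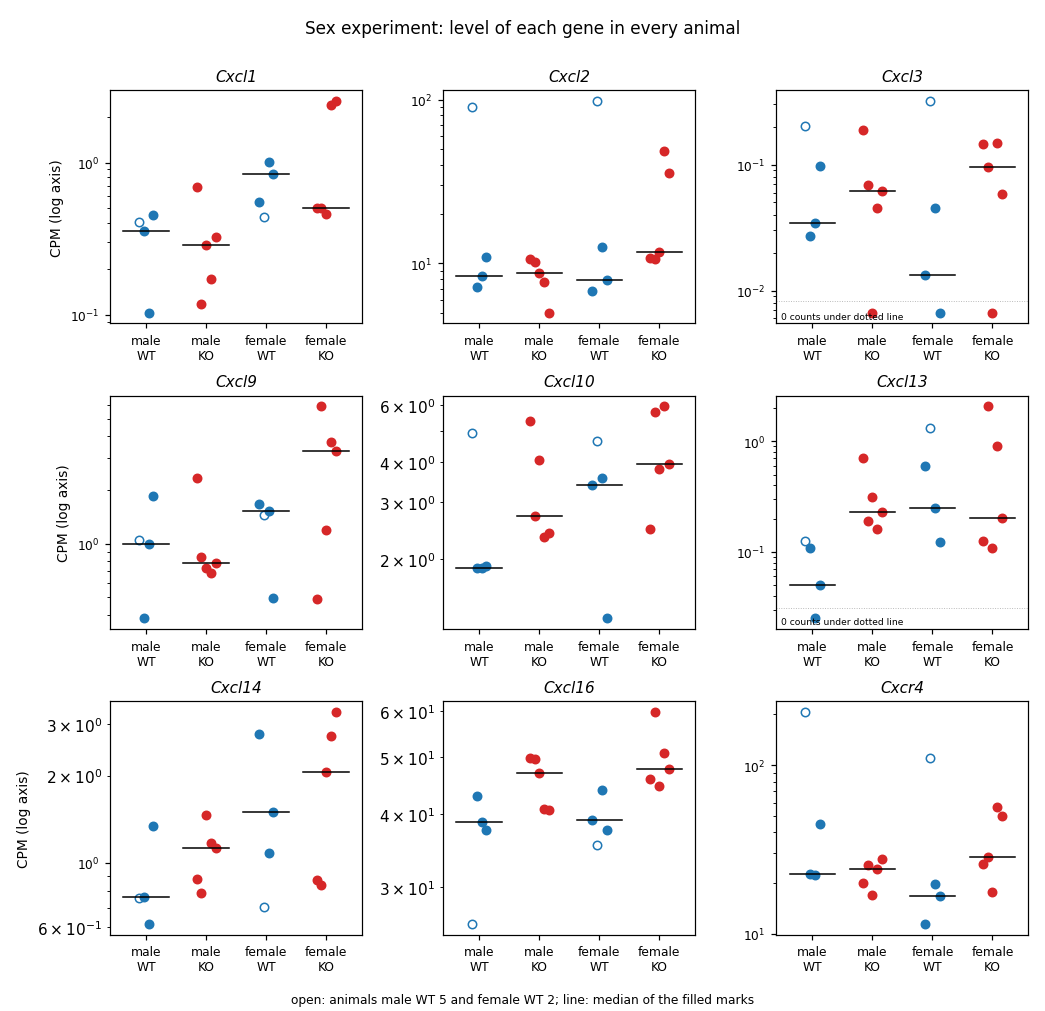
Level of each of the 9 genes in CPM (log axis, one panel per gene) in every animal of the sex experiment, by sex and genotype, with samples at 0 counts drawn under a dotted line. Open symbols are MWT 5 and FWT 2, lines are medians of the filled symbols, and the 2 open ones lie highest in Cxcl2 (89.7 and 98.6 CPM) and in Cxcr4 (207 and 110 CPM).

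Over the 16 other animals, Cxcr4 still followed the neutrophil marker sum, a relation chosen after seeing the data. The permutations ran across sex and genotype, and their p-values do not allow for that choice. Pearson's r of log2 levels was 0.812 (permutation p = 0.00017, adjusted over 9 relations 0.00153) and Spearman's rho 0.732 (permutation p = 0.00195, adjusted 0.0113). Without the 2 animals farthest from the median sum, r was 0.698. For Cxcl3 r was 0.627 (permutation p = 0.00861, adjusted 0.0387) and rho 0.717 (adjusted 0.0113), and for Cxcl2 r was 0.463 (permutation p = 0.0786, adjusted 0.236). For the other 6 genes r lay between -0.085 and 0.216, with adjusted permutation p of at least 0.848. Without the same 2 farthest animals r was 0.650 for Cxcl3, 0.551 for Cxcl2 and 0.272 to 0.443 for the other 6 genes. The gap between Cxcr4 and the other genes was thus smaller without these animals. The relation to neutrophil markers need not be particular to them. FKO 4, FKO 5 and MWT 4, with the most Cxcr4 of the 16 animals, also had the highest monocyte marker sums, at 834, 636 and 788 CPM. A relation of Cxcr4 to the monocyte sum was not tested. The labels give all these animals the same batch, so no split by batch could be made.

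**Figure D5:**
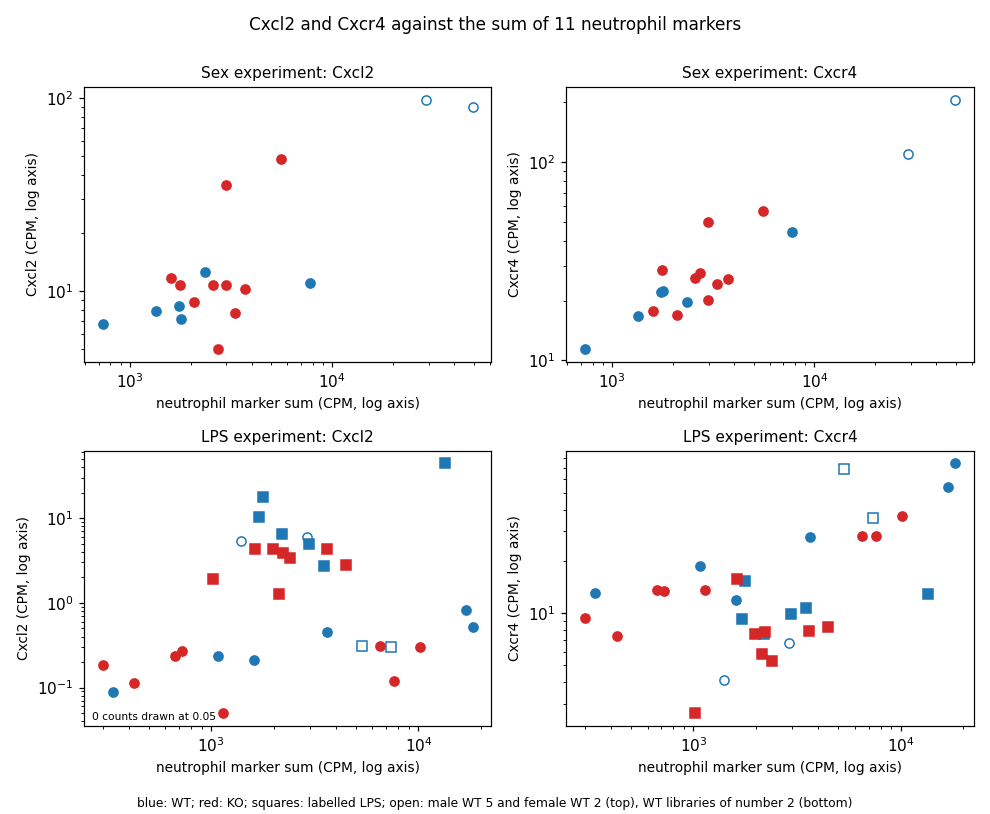
Cxcl2 and Cxcr4 level (CPM, log axis) against the summed CPM of 11 neutrophil markers (log axis) in every sample of both experiments, WT in blue and KO in red, LPS as squares, with open symbols for MWT 5, FWT 2 and the WT libraries of number 2. In the sex experiment MWT 5 and FWT 2 lie at 49500 and 29100 on the horizontal axis with the highest Cxcr4, and in the LPS experiment WT ns 3 and WT ns 8 lie at 18300 and 16900 with 74 and 54 CPM of Cxcr4.

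The remaining chemokines were low in the sex experiment. Cxcl10 stood at 1.31 to 5.96 CPM, Cxcl9 at 0.381 to 5.88, Cxcl14 at 0.616 to 3.31, Cxcl1 at 0.103 to 2.55 and Cxcl13 at 0 to 2.07, and Cxcl3 stood at no more than 0.322. Art3, which overlaps Cxcl10 on the opposite strand, stood at 5.58 to 13.8 CPM in these animals, and its part in the Cxcl10 counts was not tested. Cxcl1 was highest in FKO 4 and FKO 5, at 2.39 and 2.55 CPM, the animals that were also high in Cxcl2. Cxcl13 in males was 0.109, 0, 0.0499 and 0.125 CPM in MWT 1, 3, 4 and 5 and 0.71, 0.191, 0.311, 0.162 and 0.229 in MKO 1 to 5, so that all 5 KO males lay above all 4 WT males (1.97% of all genes tested did not overlap between these groups). Its log2 difference in males was 2.08 ± 0.97 (adjusted p = 0.719, edgeR) on 48 and 240 counts in all. In FWT 1, 2, 3 and 5 Cxcl13 was 0.6, 1.31, 0.248 and 0.123, which gives a female minus male difference in WT of 2.93 ± 1.02 (adjusted p = 0.575, edgeR), and in FKO it ranged from 0.109 to 2.07.

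By count, edgeR called 0 of the 9 genes for KO against WT in males (0.00946% of all genes called), 0 in females (0.164%) and 0 averaged over the sexes (0.432%). It called 0 for the sex-by-genotype interaction (0%) and 0 for females against males in WT (0.0725%). At an unadjusted p under 0.05 there were 3, 1, 1, 0 and 1 of the 9 in that order, against 6.85%, 5.22%, 9.02%, 2.77% and 7.5% of all genes. DESeq2 called 0 in each, against 0.0896%, 0.967%, 1.36%, 0% and 0.376% of all genes. The 95% confidence interval of the log2 difference averaged over the sexes was 0.17 to 0.51 for Cxcl16, -0.14 to 0.92 for Cxcl10, -0.25 to 0.9 for Cxcl14, -0.28 to 1.44 for Cxcl9 and -0.1 to 2.43 for Cxcl13. Of the 16 other genes of the family 14 were tested, and the lowest adjusted p was 0.169 for Ackr3 (edgeR). Mif, a ligand that Cxcr4 also binds, was the only gene of the other lists that was called in this comparison, at 6.31 ± 0.647 CPM in KO and 4.62 ± 0.513 in WT (SD, 10 and 8 animals), a log2 difference of 0.45 ± 0.09 (adjusted p = 0.0331, edgeR).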

How the data were processed

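Per the submitters' processing notes, the tools were FastQC, STAR 2.6.1, featureCounts of Subread and DESeq2, with build GRCm39. The authors deposited raw counts per gene, 1 table per experiment. In the deposited table of the sex experiment the gene length, a further column, equals the whole span, and the tables were not fitted together. Of its counts from 1 to 50, 78.4 to 87.7% per sample were even, against 41 to 46.2% in the LPS experiment. The reason is not given in the sources used here, so low counts of the experiments may not have the same unit. Columns were matched to samples by name, with 0 left over. In the sex experiment each of the 18 animals has 1 column, and 6 samples titled as repeats of these animals were not used here as replicates. Libraries 8 and 9 of WT LPS were summed to 1 sample after seeing the counts, since their chi-square over degrees of freedom was 1.86 (other pairs at least 8.32), which leaves 32.

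Genes were filtered with filterByExpr and tested with edgeR 4.0.16 (R 4.3.3; TMM, quasi-likelihood test, a mean per group, library set as covariate in the LPS experiment). P-values were adjusted over all genes tested by Benjamini-Hochberg, and a gene is called under 0.05. The test was run on simulated counts with known changes. These had a single spread for all genes and no libraries apart or against their labels, so they do not show how the test behaves here. Intervals are 1.96 SE and can be narrower than the test implies, so one that misses 0 need not have an unadjusted p under 0.05. Levels per kb use the union of all exons of a gene in GENCODE vM21.

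The 9 members and all gene lists were chosen with earlier results of these data known. Named genes were all members, every family gene, up to 4 genes of each other list with the lowest adjusted p for LPS in KO, and the 3 most like each member. One gene that this rule names is not reported here. Alternatives were DESeq2 1.42.0, RLE scaling, other filters, other designs, library sets and left-out samples.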

Additional observations from a re-analysis of the deposited data

Results flagged for a closer look

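A sample whose CPM was separated from the rest of its group by most of the group's range was looked for in 64 groups of a gene and a condition. Chance would flag about 1 in 20 only if levels were normally spread, which CPM values need not be, so the number flagged has no set expectation. The WT groups of the LPS experiment included the libraries of number 2. There were 19 such samples. In the sex experiment they were MWT 5 for Cxcl2 (89.7 CPM, next 11), Cxcl10 (4.93, next 1.9) and Cxcr4 (207, next 44.5), and FWT 2 for Cxcl2 (98.6, next 12.6), Cxcl3 (0.322, next 0.045) and Cxcr4 (110, next 19.8). MKO 1 was high in Cxcl9 (2.33, next 0.845) and Cxcl13 (0.71, next 0.311).

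In the LPS experiment WT LPS 7 was high in Cxcl2 (44.2 CPM, next 17.9), Cxcl10 (363, next 104), Cxcl13 (154, next 29.7) and Cxcl16 (1080, next 324). KO LPS 5 was high in Cxcl10 (349, next 133) and Cxcl13 (78.2, next 29), and KO ns 6 in Cxcl10 (11.7, next 6.08) and Cxcl16 (96.5, next 61.4). The library labelled WT ns 5 was high in Cxcl10 (39.2, next 14.2) and the library labelled WT LPS 6 in Cxcr4 (69, next 35.7). KO LPS 7 was high in Cxcr4 (15.8, next 8.32). Of the 11 in this experiment, 10 were in 5 of the 6 libraries whose expression profile stood apart, the exception being KO LPS 7.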

How the results depend on the processing

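In KO, 6 members were called for LPS (22.3% of all genes), and 9 with DESeq2 (21.3%), which also tests Cxcl1 and Cxcl3. There were 3 at a mean of at least 5 CPM (4 members tested), 0 in library set 2 alone and 2 in set 2 without library number 2. In WT, 0 were called in all samples (0% of all genes) and 3 with DESeq2 (4.01%). Without library number 2 in all groups 6 were called (36.3%), and over the 22 samples 7 (53.7%). There were also 6 without library number 2 in WT alone, 4 without the 6 libraries apart, 5 in set 1 and 4 in set 2 without number 2. For KO against WT at ns, DESeq2 called 2 (0.859% of all genes). Leaving out each animal of the sex experiment in turn called 0 members in every fit. Where no share of all genes is given here, a count may reflect how many genes that fit calls and is no result about the members.

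Signs turned among differences that edgeR did not call, among them Cxcl13 for KO against WT at ns, which DESeq2 called over all samples (adjusted p = 0.00321). For KO against WT at ns, without number 2 Cxcl9, Cxcl10 and Cxcl16 became 0.25, 0.87 and 0.24, without WT number 2 they became 0.2, 0.82 and 0.23 with Cxcl13 at 0.11, and over the 22 samples 0.1, 0.6 and 0.1. In set 1 without number 2 they became 0.17, 0.5 and 0.06 with Cxcl13 at 0.31, and in set 2 without number 2 0.33, 1.49 and 0.46. For KO against WT under LPS, Cxcl10 became -0.77 without number 2, -0.1 without WT number 2 and -1.46 in set 2 without number 2. Cxcl9 became 0.19 in set 1 and 0.18 in set 1 without number 2, Cxcl16 0.26 in set 1 and 0.21 without the 6 libraries apart, and Cxcl13 0.02 without those 6. Averaged over the sexes, Cxcl3 ranged from -0.52 to 0.94 as each animal was left out, and without MWT 5 and FWT 2 Cxcl2, Cxcl3 and Cxcr4 became 0.65, 1.3 and 0.39. The cause was not tested. Same-numbered samples did not all deviate together: over 45 pairs of the LPS experiment the mean r was 0.111 (-0.84 to 0.735), and over 24 of the sex experiment 0.00677 (-0.478 to 0.354). With the replicate block, 5 members were called for LPS in KO, Cxcl9 being lost (adjusted p = 0.0543, edgeR), and 0 in every other comparison. Fits without WT LPS 7, KO ns 6, the 6 libraries apart or MWT 5 and FWT 2, and sets without number 2, were chosen after seeing the data. Counts of Cxcl1 and Cxcl3 at ns are too few for a fold change.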
